A study of Mus musculus with 10 samples.

Results

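TRAF proteins and the CARD9-BCL10-MALT1 complex carry signals from receptors to NF-kB in innate immune cells, and 9 of their genes were looked up by symbol in the deposited raw and normalized tables: Traf2, Traf3, Traf4, Traf5, Traf6, Malt1, Bcl10, Card9 and Tnfaip3. Of these, 7 were found among the 545 endogenous genes, while Bcl10 and Malt1 were not analysed here. The cells were hippocampal microglia, the resident macrophages of the brain, from male Balbc mice at postnatal day 14, isolated on a Percoll gradient and by FACS. They came from 5 control pups (1, 18, 40, 52 and 69) and from 5 pups given brief daily separation, BDS (11, 17, 24, 38 and 59), with all pups from different litters. In BDS, pups were taken from the mother for 15 min a day, on a schedule stated as postnatal days 1 to 21, so that collection at day 14 fell within it. Each pup gave 1 lane on an nCounter mouse immune panel, in which fluorescent barcodes bound to amplified cDNA are counted probe by probe.

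TRAF proteins bind the inner tails of TNF receptor family members or act below Toll-like and interleukin-1 receptors. Most of them are ubiquitin ligases whose chains recruit the kinases that free NF-kB. TRAF2 and TRAF3 also sit in a complex that degrades the kinase NIK and so restrains the non-canonical NF-kB pathway. CARD9 links C-type lectin receptors, which sense fungal cell walls in myeloid cells, to BCL10 and MALT1. Tnfaip3 encodes A20, a ubiquitin-editing enzyme that shuts the pathway down and whose gene is itself switched on by NF-kB.

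Because this feedback acts on transcription, the promoter windows of the 7 genes, from 250 bases before to 50 bases after the start, were searched on both strands for the kappaB consensus, the NF-kB binding motif. The RefSeq table (GRCm38.p6) held 8 windows for the 7 genes, and 2 of these windows, 1 of Traf3 and 1 of Tnfaip3, held a match. Such a match was present in 8.46% of all 32851 windows listed there. The 2 windows are shown because they share a match, GGGGATTTCC in the direction of the consensus. Capitals mark every match. In Traf3 (chr12:111166120-111166419, plus strand) the shared letters are on the gene's strand. In Tnfaip3 (chr10:19015361-19015660, minus strand) they are on the opposite strand, read as GGAAATCCCC, and the other capitals are another match.

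Traf3: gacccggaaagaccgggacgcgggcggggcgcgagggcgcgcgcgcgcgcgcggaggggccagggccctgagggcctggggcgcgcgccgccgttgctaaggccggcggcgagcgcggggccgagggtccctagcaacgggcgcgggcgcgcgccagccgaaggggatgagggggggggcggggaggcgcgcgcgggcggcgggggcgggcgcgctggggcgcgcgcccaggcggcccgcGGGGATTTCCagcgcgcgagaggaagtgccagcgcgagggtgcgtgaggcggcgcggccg

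Tnfaip3: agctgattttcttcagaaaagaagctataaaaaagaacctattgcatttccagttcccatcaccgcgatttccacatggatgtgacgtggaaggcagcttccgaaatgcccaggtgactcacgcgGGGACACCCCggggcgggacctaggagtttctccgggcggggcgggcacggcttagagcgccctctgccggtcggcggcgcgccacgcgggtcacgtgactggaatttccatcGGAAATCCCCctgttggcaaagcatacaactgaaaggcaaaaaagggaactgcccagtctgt

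The shared match begins 10 bases before the annotated start in Traf3 and 12 bases before it in Tnfaip3. These exact letters occur in 32 of the 32851 windows (0.0974%). They were singled out after both windows had been read, and a match in letters is not a measured binding site.

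All 9 microglia and macrophage marker genes looked for (Csf1r, Cx3cr1, Itgam, Trem2, C1qa, C1qb, Emr1, Ptprc and Ctss) were above background, with 31.9 to 38.8% of endogenous counts in control lanes and 32.4 to 36.8% in BDS lanes. Within that share single genes went both ways. The log2 fold change was -0.63 ± 0.23 (SE) for Cx3cr1, -0.56 ± 0.18 for Itgam and -0.03 ± 0.20 for C1qb. It was 0.09 ± 0.16 for Emr1, 0.17 ± 0.22 for Csf1r and 0.28 ± 0.18 for Trem2. For Ctss, C1qa and Ptprc it was 0.48 ± 0.18, 0.76 ± 0.20 and 0.83 ± 0.26. Of 8 T cell markers 0 were above background in enough lanes, and of 6 B cell markers 2 were (Cd79b and Blnk). The 6 B cell markers together made up 0.226 to 0.338% of counts in control and 0.308 to 0.411% in BDS lanes. The log2 fold change was -0.14 ± 0.22 (SE) for Cd79b and 0.40 ± 0.20 for Blnk. The 3 endothelial markers were above background, at 0.184 to 0.394% of counts in control lanes and 0.212 to 0.259% in BDS lanes. They too went both ways, with a log2 fold change of 0.97 ± 0.37 (SE) for Cdh5, -0.56 ± 0.24 for Pecam1 and -0.42 ± 0.24 for Cd34. Of 5 granulocyte and monocyte markers 2 were above background, Csf3r and Ccr2, and the 5 together made up 0.369 to 0.895% of counts in control and 0.257 to 0.445% in BDS lanes. The log2 fold change was -0.77 ± 0.24 (SE) for Csf3r and 0.59 ± 0.23 for Ccr2. Each share is a sum over probes in bulk RNA and does not show which cells the counts came from. The part of these markers in the results below was not tested. Endogenous counts per lane ran from 76237 in control 52 to 968930 in BDS 17. Housekeeping signal, the geometric mean of 6 housekeeping genes by which each lane was scaled, was higher in BDS lanes by 1.23 on the log2 scale. In bulk RNA, fewer cells of a type and less RNA per cell cannot be told apart.

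The comparison of BDS with control pups asked whether the separation changed expression of these signalling genes in microglia. Of the 7 genes, 6 exceeded the negative-control limit in all 10 lanes and were tested, and Traf4 did so in 2 lanes. By edgeR's quasi-likelihood fit, 0 of the 6 had an adjusted p under 0.05, where 0% of all 283 tested genes did, and 0 of the 6 had an unadjusted p under 0.05, where 28.3% of all tested genes did (19.4% higher and 8.83% lower in BDS). With the same scaling DESeq2 and limma also called 0 of the 6 at either bound. Of the 283 genes, DESeq2 called 26 at the adjusted and 93 at the unadjusted bound, and limma 0 and 74. In contrast, limma with array weights put Traf3, 1 of the 6, past the adjusted bound, as it did 30% of all tested genes. Without control 40 or without BDS 11, 47 and 19 genes of the panel passed the adjusted bound, and 0 of the 6 did. Of the 6 genes, 4 had fitted values above 0 and 2 below, where 44.2% of the 283 genes lay below, and the median log2 fold change was 0.09 for the 6 and 0.09 for the 283. With lane depth added to the edgeR model 0 of the 6 had an unadjusted p under 0.05, beside 12.7% of tested genes. The lane values of both groups overlapped for each of the 7 genes, while they did not overlap for 4.59% of tested genes.

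**Figure D1:**
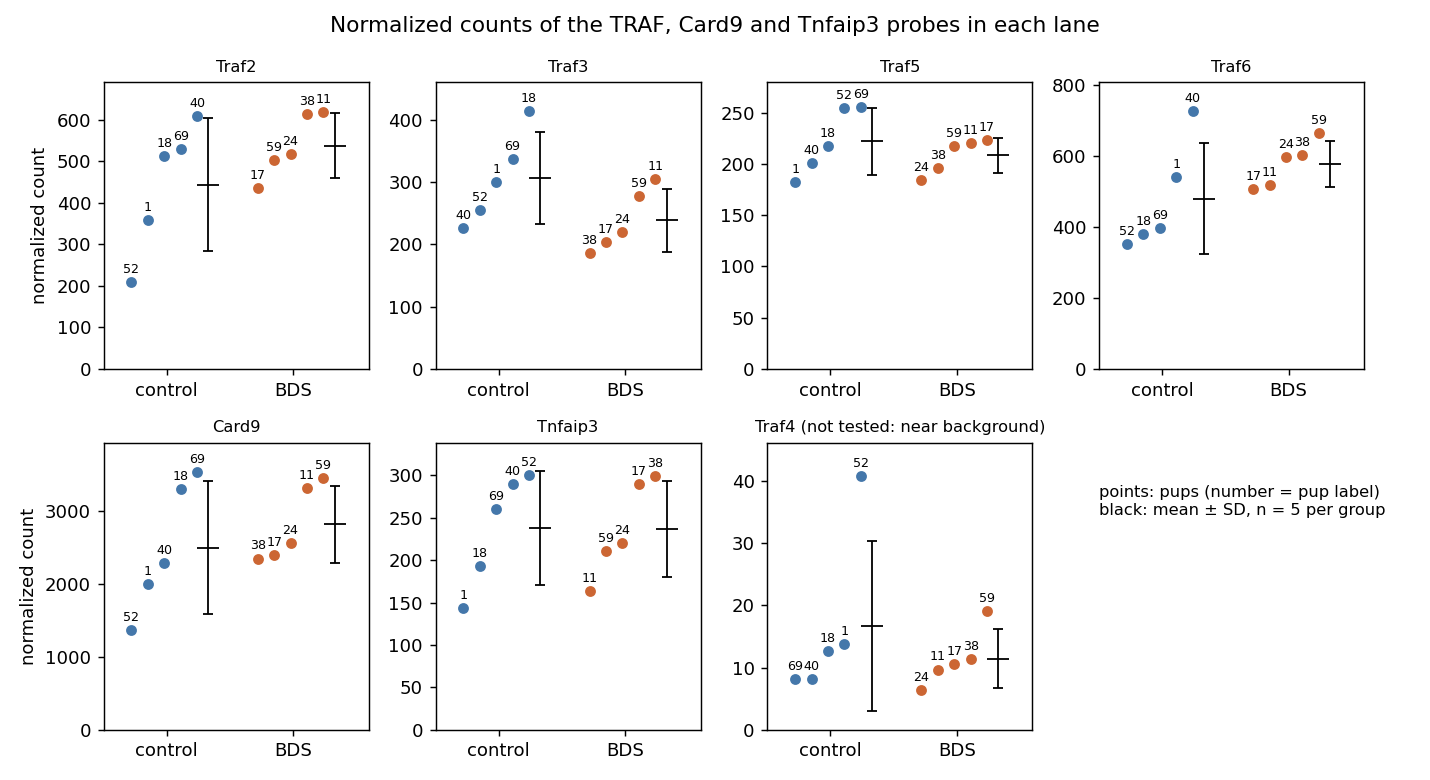
Normalized counts (vertical axes, from 0) of the 7 genes in each lane, control pups in blue and BDS pups in orange, with pup numbers at the points and the mean ± SD (n = 5 per group) in black. The groups overlap in every panel; 3 of 5 BDS lanes lie below all control lanes for Traf3, and control 52 is the lowest lane for Traf2, Traf6 and Card9.

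Traf3, an inhibitor of the non-canonical pathway that also serves interferon induction, had the smallest p of the 6. In control lanes it stood at 299.8 normalized counts in pup 1, 414 in pup 18, 226 in pup 40, 255 in pup 52 and 337 in pup 69. In BDS lanes it stood at 305 in pup 11, 204 in pup 17, 219 in pup 24, 186 in pup 38 and 277 in pup 59. All 5 BDS lanes lay below the control mean and 3 lay below every control lane, but BDS 11 and BDS 59 fell inside the control range. The means were 306 ± 73.8 (SD, n = 5) in control and 238 ± 50.4 (n = 5) in BDS lanes, a log2 fold change of -0.37 ± 0.22 (SE; 95% interval -0.84 to 0.10; edgeR adjusted p = 0.270). In the ordering by p, 118 of the 283 tested genes (41.7%) had smaller values than Traf3. The authors' deposited table gives Traf3 a ratio of 0.68 with an unadjusted p of 0.0478, in a table where 18.7% of the genes tested here have a p under 0.05. Its fold change lay below the median of all genes in the fit by 0.46, and 52 of the 283 genes had lower values. Of the 31 fits made, which share lanes, Traf5 lay below that median in 30 and Tnfaip3 in 29. Traf3 did so in all 31, but 10 of these changed only the scaling, which moves genes largely together. In those 10, Traf3 minus the median ran from -0.55 to -0.45. Leaving out 1 pup moved its log2 fold change between -0.47 (without BDS 11) and -0.23 (without control 18; edgeR adjusted p = 0.525). The sign itself turned in 1 of 30 alternatives, scaling to the positive controls alone, where the value was 0.80 against a median of 1.35 over all genes. A model that also held lane depth put Traf3 at -0.28 ± 0.25 (SE).

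Traf2, the partner of Traf3 in that complex and the adaptor of TNF receptors, had a fitted value above 0. Control lanes stood at 359 (pup 1), 512 (pup 18), 609 (pup 40), 209 (pup 52) and 529.6 (pup 69) normalized counts. BDS lanes stood at 618 (pup 11), 435 (pup 17), 518 (pup 24), 614 (pup 38) and 502 (pup 59). Control 52 stood far below the other lanes, on 41 raw counts (exact 95% Poisson interval 29.4 to 55.6, which covers counting error only). The means were 444 ± 159 (SD, n = 5) in control and 538 ± 78.2 (n = 5) in BDS lanes, a log2 fold change of 0.26 ± 0.25 (SE; 95% interval -0.27 to 0.79; edgeR adjusted p = 0.500). Leaving out control 52 gave 0.10, and adding lane depth to the model gave 0.043.

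**Figure D2:**
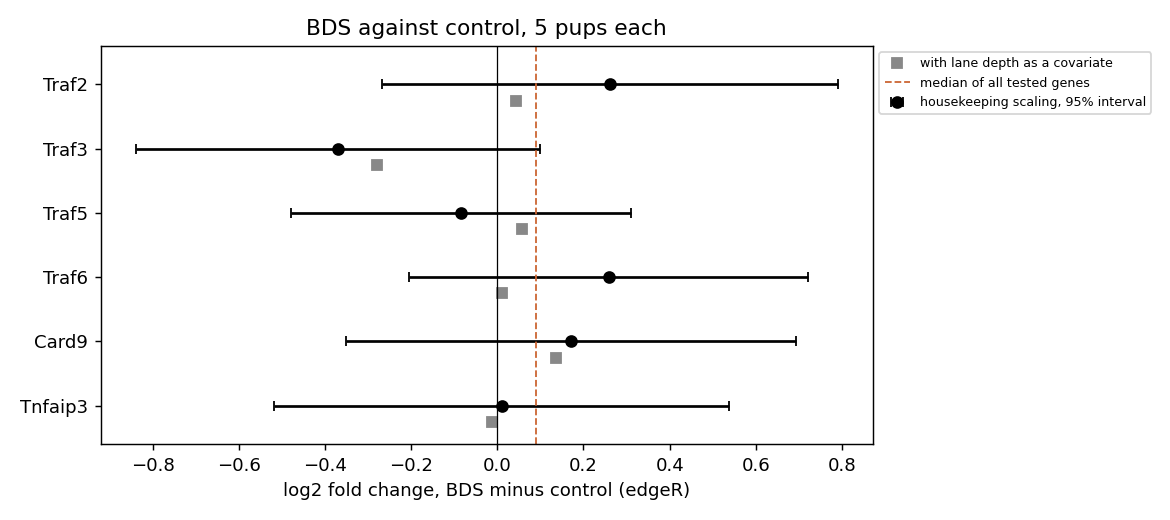
Log2 fold change of BDS over control for the 6 tested genes (black points, with 95% intervals from edgeR), the value with lane depth as a covariate (grey squares), and the median of the 283 tested genes (dashed line, 0.09). All 6 intervals include 0, and Traf3 has the lowest value, at -0.37.

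A ratio of 2 probes within a lane does not depend on how the lane is scaled, so Traf2 over Traf3 was compared in raw counts. The log2 ratio was 0.26, 0.30, 1.43, -0.29 and 0.65 in control pups 1, 18, 40, 52 and 69. It was 1.02, 1.09, 1.24, 1.72 and 0.86 in BDS pups 11, 17, 24, 38 and 59. Every BDS lane lay above 4 of the 5 control lanes, and control 40 lay above 4 of the 5 BDS lanes. The mean was 1.19 ± 0.33 (SD, n = 5) in BDS and 0.47 ± 0.63 (n = 5) in control lanes. The difference of 0.72 had an exact two-sided permutation p of 0.0556 over all assignments of the lanes, or 0.111 adjusted over the 2 pairs tested. Without control 40, the 1 control lane inside the BDS range, the difference was 0.96 and the groups no longer overlapped. The exact permutation p of 0.00794 (adjusted 0.0159) is then the smallest the test can give. It follows from which lane was removed, so nothing is concluded from it. Without controls 52 and 69 the difference was 0.52 (exact permutation p = 0.196). A ratio free of the scale factor can still vary with lane depth. Log2 housekeeping signal was 8.85, 9.32, 10.05, 6.82 and 7.73 in control pups 1, 18, 40, 52 and 69. In BDS pups 11, 17, 24, 38 and 59 it was 8.90, 10.29, 9.96, 10.12 and 9.67. The ratio was not adjusted for depth, and the part of depth in the difference was not tested.

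**Figure D3:**
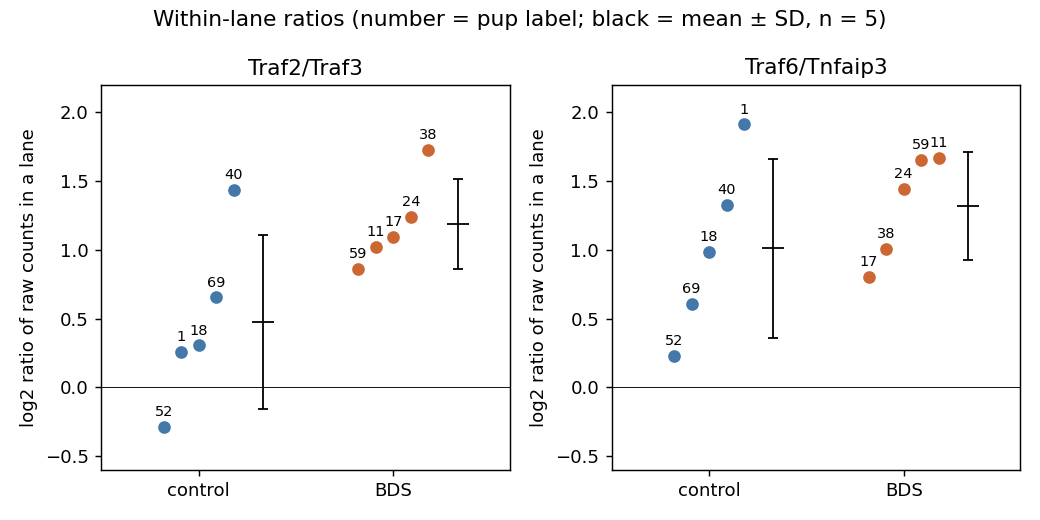
Log2 ratio of raw counts within each lane for Traf2 over Traf3 (left) and Traf6 over Tnfaip3 (right), by group, with pup numbers at the points and the mean ± SD (n = 5) in black. For Traf2 over Traf3, control 40 is the single control lane inside the BDS range of 0.86 to 1.72; for Traf6 over Tnfaip3 the BDS range lies within that of the controls.

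Traf5, an adaptor of TNF receptor family members, varied least of the 6. It ran from 182 to 255 normalized counts with a median of 218 in control lanes and from 184 to 223 with a median of 218 in BDS lanes. The BDS range thus lay inside the control range. The log2 fold change was -0.08 ± 0.18 (SE; 95% interval -0.48 to 0.31; edgeR adjusted p = 0.779), and its sign turned in 5 of 30 alternatives.

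Traf6, the ligase that Toll-like and interleukin-1 receptors use through MyD88, stood at 541, 382, 728, 352 and 396.5 normalized counts in control pups 1, 18, 40, 52 and 69. It stood at 520.1, 506, 598, 602 and 666 in BDS pups 11, 17, 24, 38 and 59. All 5 BDS lanes lay above the control mean, yet the highest lane of all was control 40. The means were 479.9 ± 157 (SD, n = 5) in control and 579 ± 65.6 (n = 5) in BDS lanes, a log2 fold change of 0.26 ± 0.22 (SE; 95% interval -0.20 to 0.72; edgeR adjusted p = 0.444). Without control 40 it was 0.46 (edgeR adjusted p = 0.0913), and with lane depth in the model it was 0.012.

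Traf4, best known from epithelial cells and development, lay near background. Its raw counts ran from 3 to 27, and it exceeded the negative-control limit in BDS 17 and BDS 59 alone. Control 52 reads as 40.8 normalized counts, but that is 8 raw counts divided by the smallest scale factor. The authors' deposited table lists it above background in 20% of samples.

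Card9, the adaptor below Dectin-1 and related lectin receptors, stood at 1999, 3299.6, 2277, 1362 and 3525 normalized counts in control pups 1, 18, 40, 52 and 69. It stood at 3315, 2393, 2551, 2343 and 3449.7 in BDS pups 11, 17, 24, 38 and 59. BDS lanes all lay inside the control range. The means were 2492 ± 907 (SD, n = 5) in control and 2810.5 ± 529.96 (n = 5) in BDS lanes, a log2 fold change of 0.17 ± 0.24 (SE; 95% interval -0.35 to 0.69; edgeR adjusted p = 0.640). It was 0.02 without control 52, the lowest lane, and 0.33 without control 69, the highest.

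Tnfaip3, the A20 feedback inhibitor, had nearly equal means. Control pups 1, 18, 40, 52 and 69 stood at 144, 193, 290.3, 301 and 261 normalized counts, and BDS pups 11, 17, 24, 38 and 59 at 163, 289.95, 219.7, 299 and 211. The means were 238 ± 67.4 (SD, n = 5) in control and 237 ± 57.2 (n = 5) in BDS lanes. The log2 fold change was 0.01 ± 0.25 (SE; 95% interval -0.52 to 0.54; edgeR adjusted p = 0.989). The log2 ratio of Traf6, which drives the pathway, to Tnfaip3 was 1.01 ± 0.65 (SD, n = 5) in control and 1.32 ± 0.39 (n = 5) in BDS lanes, and the exact two-sided permutation p was 0.389 (0.389 adjusted over the 2 pairs). Without controls 52 and 69 that difference of 0.31 was -0.092.

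Spread between pups was smaller in BDS than in control lanes for each of the 6 tested genes, as it was for 78.4% of all 283 tested genes. The SD of log2 normalized counts was 0.62 in control and 0.21 in BDS lanes for Traf2, 0.44 and 0.16 for Traf6, 0.56 and 0.27 for Card9, and 0.21 and 0.12 for Traf5. Traf3 (0.34 and 0.30) and Tnfaip3 (0.45 and 0.36) differed less. Without control 52, the lane with the fewest counts, the spread stayed smaller in BDS for 6 of 6 genes, beside 61.8% of all tested genes. No test was made of this difference in spread.

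The members did not move as a block from pup to pup. Over the 10 lanes, log2 normalized counts of Traf2 and Card9 had a Pearson correlation of 0.76, and control 52 is the lowest lane of both. The correlation of Traf2 and Traf3 was -0.04. Traf3 and Tnfaip3, whose promoter windows are printed above, ran in opposite directions (r = -0.59). Traf5 and Traf6 did so too (r = -0.70). Within groups, r was 0.74 for Traf2 and Card9, 0.22 for Traf2 and Traf3, -0.68 for Traf3 and Tnfaip3 and -0.67 for Traf5 and Traf6. For Traf3 and Card9 it was 0.45 over all lanes and 0.74 within groups. These correlations share each lane's scale factor and are given as descriptions.

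Among 191 other genes above background in all 10 lanes, the 2 most like Traf3 were Ptpn6, the phosphatase SHP-1 (r = 0.92), and Ctnnb1, beta-catenin (r = 0.83). Traf2 was most like the proteasome gene Psmc2 (r = 0.93) and the kinase gene Map4k4 (r = 0.91), and Card9 most like the adhesion molecule gene Icam1 (r = 0.88) and Map4k4 (r = 0.83). Traf5 was most like the transcription factor gene Stat6 (r = 0.898) and Rae1 (r = 0.89), Traf6 most like Abcf1 and the RNA sensor gene Tlr3 (r = 0.84 each), and Tnfaip3 most like the ectonucleotidase gene Entpd1 (r = 0.85). Each value is over 10 lanes and is the top of 191 candidates. The rank correlation of Map4k4 was only 0.31 with Traf2 and 0.50 with Card9, and control 52 is the lowest lane of Traf2 and of Card9.

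Of 45 receptors and adaptors that lie upstream of TRAFs or CARD9, 24 were tested. At an unadjusted edgeR p under 0.05, 5 were higher and 1 was lower in BDS (25% of the list, beside 28.3% of all tested genes), with a median log2 fold change of 0.23, beside 0.09 over all tested genes, and 0 at an adjusted p under 0.05. The split of 5 to 1 was 1 to 2 under TMM scaling, median-of-ratios scaling and scaling that left out Sdha. The genes with the smallest p on the higher side were the kinase gene Irak4, which hands the MyD88 signal to Traf6 (0.58 ± 0.20, SE), the TNF receptor family member Cd27 (0.69 ± 0.27) and Tlr1 (0.49 ± 0.20). On the lower side they were the DNA sensor Tlr9 (-0.41 ± 0.17), the lymphotoxin beta receptor gene Ltbr (-0.78 ± 0.42) and the adaptor gene Myd88 (-0.54 ± 0.33). The 6 genes became 2 without control 1 and 10 without control 40. With lane depth in the model Irak4 was at 0.30, Cd27 at 0.40, Tlr1 at 0.33, Tlr9 at -0.58, Ltbr at 0.33 and Myd88 at 0.22. Without control 52, Ltbr was at -0.27 and Myd88 at -0.23. With positive controls alone, where the median of all genes was 1.35, Tlr9 was at 0.76, Ltbr at 1.06 and Myd88 at 1.10.

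Of 38 kinases, NF-kB genes and targets downstream, 22 were tested, with 4 higher and 0 lower at an unadjusted edgeR p under 0.05 (18.2%, below the 28.3% of all tested genes), 0 at an adjusted p under 0.05 and a median of 0.19, beside 0.09 over all tested genes. The split of 4 to 0 was 2 to 4 with Sdha left out of the scaling, 2 to 2 with median-of-ratios factors, 3 to 2 with TMM and 3 to 3 without BDS 38. The 4 became 8 without control 52. With lane depth in the model they became 6 of the 22, 4 higher and 2 lower, beside 12.7% of all tested genes. On the higher side the smallest p belonged to the kinase genes Tbk1 (0.68 ± 0.19, SE) and Chuk (0.68 ± 0.21) and the activation marker gene Cd83 (0.47 ± 0.17). On the lower side the smallest p belonged to the chemokine genes Ccl4 (-0.61 ± 0.29) and Ccl3 (-0.76 ± 0.40) and to Relb (-0.98 ± 0.53), a subunit of the non-canonical pathway that Traf3 restrains. Relb was at -0.12 without control 52 and at 0.51 with lane depth in the model. With positive controls alone, beside the median of 1.35, Ccl3 was at 0.37, Ccl4 at 0.49 and Relb at 1.05.

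**Figure D4:**
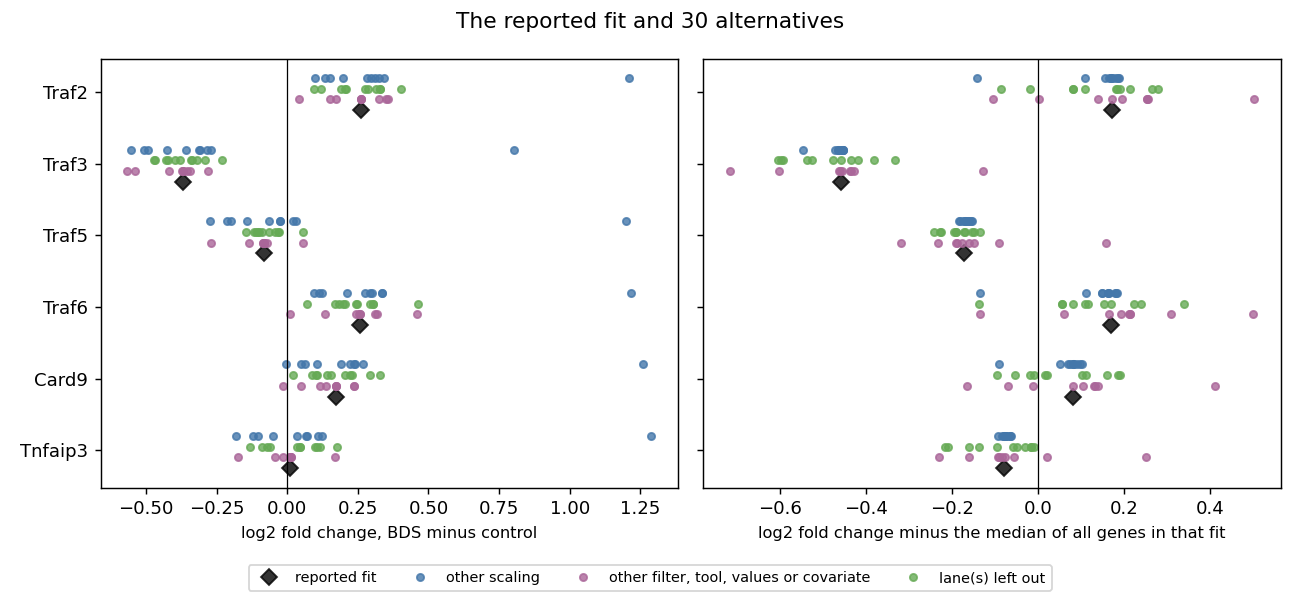
Log2 fold change of each tested gene (left) and the same value minus the median of all genes in that fit (right), for the reported fit (black diamonds) and 30 alternatives, coloured by kind. The isolated points at 0.80 to 1.29 on the left are the scaling to positive controls alone; on the right, the Traf3 values all lie below 0, between -0.72 and -0.13.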

How the data were processed

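Raw counts of barcodes per probe were deposited without normalization, and per the labels' protocols 2 ng of RNA was converted to cDNA and amplified by 5 rounds of PCR; the software that made the counts is not given in the sources used here. A further table deposited by the authors has their normalized counts, handled as a score since these were scaled to controls and rounded, with group means, a percent of samples above background, a fold (ratio of the means) and an unadjusted p-value headed as a t-test.

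Genes were tested where raw counts passed the lane's own limit (mean of the negative probes plus 2 SD) in 4 or more of 10 lanes (283 of 545). Each lane was divided by its geometric mean over Tbp, Sdha, Polr1b, Oaz1, Gapdh and Alas1. Raw counts were fitted with edgeR 4.0.16 in R 4.3.3 (quasi-likelihood F test, two-sided, Benjamini-Hochberg over all 283), with limma 3.58.1 and DESeq2 1.42.0 as alternatives; log2 values used a pseudocount of 1. The fit was tested on simulated data. Of 4 gene pairs chosen, 2 had both members tested. Levels of different probes were not compared. Since litters differed between all pups and each pup gave 1 lane, p-values measure the spread between such lanes. Litter, pup, sorting, amplification and lane depth all enter that spread and cannot be told apart. No pair of lanes was alike within sampling noise (chi-square per degree of freedom 22.8 or more).

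The members, lists and tests were chosen with earlier results of these data known. Named genes were all members, the 3 of each list with the smallest p in each direction, and the 2 genes most correlated with each member, of which 1 is not reported here. The kappaB consensus was chosen after other spellings of the motif had been tried. By symbol 7 of 7 genes matched RefSeq, and by probe accession 6 of 7, the exception being Traf3.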

Additional observations from a re-analysis of the deposited data

Results flagged for a closer look

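Traf4 in control 52 stood apart from the other 4 control lanes, at 40.8 normalized counts where the next highest control lane was at 13.7. Over 18 groups of 5 lanes examined (7 genes and 2 ratios in both treatment groups) it was the 1 such lane. By chance about 1 group in 20 would hold such a lane, so 1 among 18 groups is about what chance gives. The value rests on 8 raw counts (exact 95% Poisson interval 3.45 to 15.8), below that lane's negative-control limit of 24.4, and control 52 had the smallest scale factor.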

How the results depend on the processing

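No paired analysis was possible because control and BDS pups share no numbers. All 6 tested genes stayed above an adjusted p of 0.05 in the 30 alternatives, except Traf3 with limma and array weights (-0.57, adjusted p = 0.0427; range over its alternatives 0.0427 to 0.530). Traf3 had an unadjusted p under 0.05 in 4 alternatives: median-of-ratios scaling (-0.51), housekeeping without Sdha (-0.55), the authors' values in limma (-0.54) and array weights. Members at an unadjusted p under 0.05 thus numbered 1, 1, 1 and 2 of 6 there, with Traf6 the other under array weights, beside 25.8%, 26.1%, 23% and 43.1% of all genes in those fits, and 0 to 1 when a pup was left out; at an adjusted p the count was 1 with array weights and 0 with any pup left out.

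Signs turned as follows. With positive controls alone Traf3 was at 0.80 and Traf5 at 1.20. Traf5 was at 0.031 with all 14 housekeeping genes, 0.020 without Polr1b, 0.057 with lane depth and 0.054 without controls 52 and 69, a fit added after seeing the data. Card9 was at -0.0039 without Sdha and -0.014 with array weights. Tnfaip3 was at -0.10 with TMM, -0.12 with median-of-ratios, -0.051 without Oaz1, -0.18 without Sdha, -0.045 with background subtracted, -0.17 with the authors' values and -0.014 with lane depth, and ran from -0.13 to 0.12 with a pup left out. Traf2 and Traf6 kept their sign in all 30. The Traf6 to Tnfaip3 difference was -0.092 without controls 52 and 69. With a pup left out the Traf2 to Traf3 difference ran from 0.53 to 0.96 and the Traf6 to Tnfaip3 difference from 0.11 to 0.53.

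Genes at an adjusted p under 0.05 numbered 14 with positive controls alone, 12 without Gapdh, 15 without Polr1b, 10 above the limit in all lanes, 1 with background subtracted, 26 by DESeq2, 85 with array weights and 0 to 47 with a pup left out (47 without control 40, 19 without BDS 11). At an unadjusted p there were 80, but 128 with positive controls alone (128 higher, 0 lower), 139 with no filter, 122 with array weights, 36 with lane depth and 44 to 104 with a pup left out (44 without BDS 17); the split of 55 higher to 25 lower became 36 to 39 under TMM, 33 to 40 under median-of-ratios, 25 to 49 without Sdha, 43 to 33 without Oaz1 and 76 to 12 without Polr1b. The upstream list, with 6 genes, had 3 with TMM, 3 with median-of-ratios, 13 with positive controls alone, 3 without Sdha, 3 with background subtracted, 12 with array weights, 2 with lane depth and 2 to 10 with a pup left out (2 without control 1, 3 each without control 69, BDS 17 or BDS 38, 10 without control 40). The downstream list, with 4, had 11 with positive controls alone, 7 with all 14 housekeeping genes, 7 without Polr1b, 10 with array weights, 7 without controls 52 and 69, and 3 to 8 with a pup left out (8 without control 52). With lane depth the downstream list had 6, 4 higher and 2 lower. The cause of these changes was not tested. Counts in control 52, 41 for Traf2 and 8 for Traf4, limit its precision.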
